A study of Mus musculus with 6 samples.

Results

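Myc, Mycn and 7 other genes of the MAX and MLX network were followed in LPS-treated macrophages with a control shRNA or a knockdown of PGAM5. The members were 9 genes picked by symbol: Myc, Mycn, Mycl, Max, Mxd1, Mxd4, Mxi1, Mnt and Mlx. All 9 were found among the 54532 genes of the deposited tables. They were chosen by their FPKM values in this same control against PGAM5 KD comparison, whose results were known, so their levels and differences are given here as a description without p-values. FPKM is a gene's fragment count divided by its exon length and by the depth of the library, so levels of different genes can be set side by side.

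The study asked what PGAM5, a mitochondrial phosphatase, contributes to the response of macrophages to LPS, the bacterial ligand of TLR4. RNA-seq was made from mouse iBMDMs, that is immortalized bone marrow-derived macrophages, which carried a control shRNA (3 libraries) or an shRNA against PGAM5 (3 libraries, PGAM5 KD). All 6 libraries came from cells given LPS at 100 ng/ml for 4 hours, and no untreated cells were measured, so the values hold no response to LPS. The source cells were bone marrow cells of wild-type mice, and the shRNAs were delivered by lentivirus. As a limit of the model, the study's methods state that such cells were immortalized with a retrovirus encoding v-raf and v-myc, so control and PGAM5 KD cells share a viral relative of Myc itself, and its level was not analysed here. Whether fragments of the viral gene were counted for mouse Myc was not tested, so the Myc values below, and ratios formed with them, may include such fragments. Nothing states that the 3 libraries of a group came from separate cultures or infections, so the spread between them may be technical.

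MYC proteins are helix-loop-helix leucine zipper transcription factors that bind DNA only as dimers with MAX, chiefly at the E-box motif, and there raise transcription of genes for ribosome production, nucleotide synthesis and growth. The MXD proteins, MXI1 and MNT compete for MAX and recruit SIN3 and histone deacetylases to the same motif. MLX is the corresponding partner of the glucose-sensing MondoA and ChREBP proteins and also binds some MXD proteins and MNT. In macrophages, Myc is known as an immediate growth-factor response gene, while Mycn is best known from the embryo, from stem and progenitor cells and from neuroblastoma.

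Because the MYC genes are relatives, and a fragment that fits more than 1 of them could be counted for either, the stretch around the longest run of bases shared by Mycn and Mycl is shown first. It codes for the conserved MYC box II. The 60 bases come from the GENCODE M21 transcripts on GRCm38, 5′ to 3′ on the coding strand, and capitals mark the bases that are the same in both genes.
Mycn: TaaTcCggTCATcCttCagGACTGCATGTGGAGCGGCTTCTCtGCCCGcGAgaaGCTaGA
Mycl: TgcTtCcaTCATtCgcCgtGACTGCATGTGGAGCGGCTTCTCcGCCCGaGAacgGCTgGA
The Mycn stretch lies in exon 2 of 3 at chr12:12940011-12940070 (minus strand) and that of Mycl in exon 1 of 2 at chr4:122996780-122996839 (plus strand). Of the 60 bases, 44 were the same in both genes. Over the whole transcripts, the longest run of bases identical between Myc and Mycn was 12, against 21 between Myc and Mycl and 23 between Mycn and Mycl. No annotated transcript of another gene matched Myc, Mycn or Mycl at 85% identity or more over 100 bases or more. For Max, 7 processed pseudogenes passed that mark, and each was listed at 0 fragments in all 6 libraries. Mlx overlaps Psmc3ip on the opposite strand over 385 of its 1999 exon bases (19.26%), and the library protocol allows for both stranded and unstranded kits, so fragments of the 2 genes there cannot be told apart.

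The second set of sequences shows the E-box of the network's own promoters, that is, the motif CACGTG that MYC and MAX dimers bind, which reads the same on both strands. Promoters were taken from RefSeq (GRCm38.p6) as 250 bases before to 50 bases after each annotated start. Of the 9 members, 8 were matched and Myc had no entry. The motif, in capitals, was found in 4 of the 8.
Max: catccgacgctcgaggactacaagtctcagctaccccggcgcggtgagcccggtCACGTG
Mlx: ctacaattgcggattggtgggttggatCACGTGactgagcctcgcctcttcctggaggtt
Mnt: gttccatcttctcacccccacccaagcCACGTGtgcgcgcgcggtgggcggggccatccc
Mxd4: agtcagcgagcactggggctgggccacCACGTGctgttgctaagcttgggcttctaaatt
These windows lie at chr12:76962246-76962305 (Max, minus strand), chr11:101087223-101087282 (Mlx, plus strand), chr11:74830774-74830833 (Mnt, plus strand) and chr5:34187897-34187956 (Mxd4, minus strand). The first base of the motif stands 3 bases before the annotated start of Max, 40 before that of Mlx, 123 before that of Mnt and 219 before that of Mxd4. Of all 32851 promoters given there, 7.15% held the motif, and of the 27025 genes they belong to 8.093% held it in at least 1 promoter. Among the 7679 matched genes that were expressed in these cells the share was 12.4%. The promoter windows of Mycn, Mycl, Mxd1 and Mxi1 did not hold these letters, which says nothing of MYC binding there.

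Across the series, libraries held between 18163463 and 24388915 counted fragments. The knockdown was seen in its target: Pgam5 stood at 17.1, 13.0 and 13.4 FPKM in the control libraries and at 4.33, 5.75 and 4.53 FPKM in the PGAM5 KD libraries, a log2 fold change of -1.40 ± 0.13 (SE, limma adjusted p = 0.0003575), and the exact two-sided permutation p was 0.1, the smallest that 3 libraries against 3 can give. Of 8 macrophage markers 7 were above 1 FPKM and Mertk was listed at 0, and their summed level ran from 2521 to 2592 FPKM in control and from 1992 to 2038 FPKM in PGAM5 KD libraries. Single markers went both ways: Lyz2, Csf1r and Cd68 were lower in PGAM5 KD (0.760, 0.639 and 0.868 times control), Adgre1, Itgam and Fcgr1 higher (1.91, 1.85 and 3.25 times), and Spi1 was not called (0.970 times). Their part in the differences below was not tested. None of the neutrophil, fibroblast or lymphocyte markers reached 1 FPKM, and each of those lists summed to at most 0.568 FPKM in any library. In bulk RNA, fewer cells of a kind and less RNA per cell cannot be told apart.

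A gene entered the test if its mean over the 6 libraries was at least 1 FPKM, which 10540 genes were. Differences are log2 fold changes on the log2(FPKM + 1) scale, PGAM5 KD over control, with the standard error (SE) of limma's fit, and they understate the change of low genes. A gene is called higher or lower in PGAM5 KD at a Benjamini-Hochberg adjusted p under 0.05. Of all genes tested, 31.7% were called, 16.8% higher (1771 genes) and 14.9% lower (1575 genes). With FPKM rescaled to TPM, so that each library has the same sum, 1088 genes were called higher and 2282 lower, and the share of higher calls went from 52.9% to 32.3%. The summed FPKM was 304393 to 304889 in control and 317936 to 324298 in PGAM5 KD libraries, and TPM removes that difference.

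Of the 9 members 6 passed the filter and 3 (Mxd1, Mxd4 and Mycl) did not. Of the 6, Mycn was called higher, Myc was called lower and Max, Mxi1, Mnt and Mlx were not called. Since the members were chosen from this comparison, nothing is read from that count beside the 31.7% of all genes. The study's methods ask for a log2 fold change beyond 1 in either direction beside an adjusted p under 0.05, and both were passed by 1.32% of all genes and by 0 members. In 4 members (Mycn, Myc, Max and Mlx) all PGAM5 KD libraries lay on the same side of all control libraries, which was also the case for 47.1% of all genes tested. This holds on the FPKM scale. After scaling to TPM only Myc of the 6 kept its groups apart, and Mycn, Max and Mlx overlapped.

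**Figure D1:**
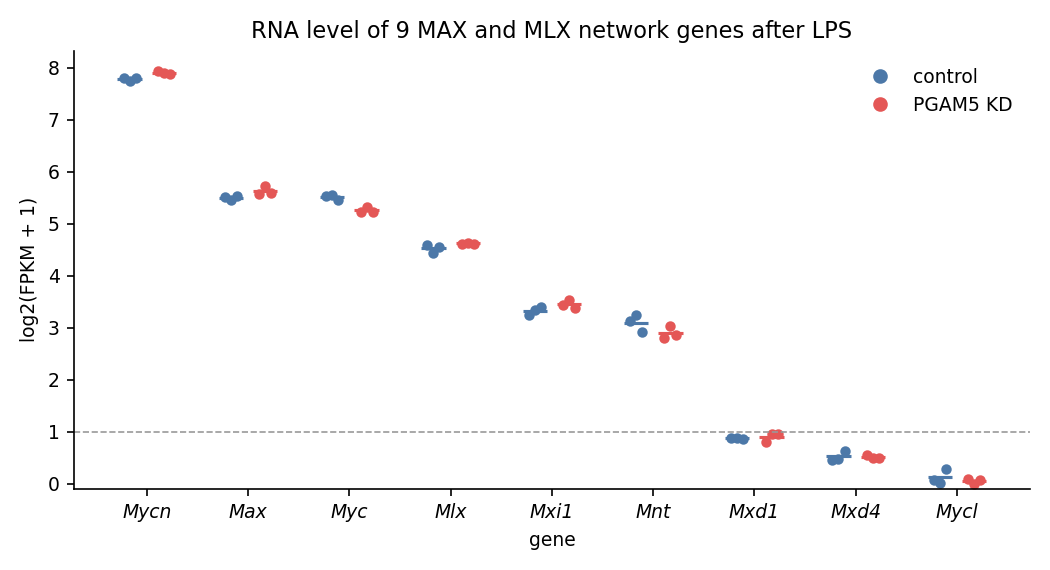
Level of each member in each library as log2(FPKM + 1), control in blue and PGAM5 KD in red, with a bar at the mean of 3 libraries. The dashed line marks 1 FPKM, and genes are ordered by their mean. Mycn stands above all other members in every library, and Mxd1, Mxd4 and Mycl lie under the line.

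Of the DNA-binding activators, Mycn was by far the most abundant. Mycn stood at 221, 215 and 222 FPKM in the control libraries and at 243, 238 and 235 FPKM in the PGAM5 KD libraries. All 3 PGAM5 KD libraries were above all 3 control libraries on this scale, though the gap was small. The means were 219.7 ± 3.91 FPKM (SD, n = 3) in control and 238.8 ± 4.29 FPKM (SD, n = 3) in PGAM5 KD, a log2 fold change of 0.12 ± 0.029 (SE). Among the 9338 protein-coding genes tested Mycn ranked 166th by its mean, and between 161st and 173rd in the single libraries. Between 13249 and 18866 fragments lay behind each value, so counting error was small. The size of this increase rested on the scaling, with a log2 fold change of 0.042 after scaling to TPM and 0.043 after quantile normalization, and under both settings Mycn was no longer called. Nor was it called without control replicate 2 (0.11) or without PGAM5 KD replicate 2 (0.12). Its log2 fold change was positive under all 19 alternatives, and it was called under 11 of them. All of these refit the libraries from which the members were chosen, so the count shows dependence on processing only.

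Myc, the founding member of the family, moved the other way. It stood at 45.3, 46.0 and 42.9 FPKM in control and at 36.3, 39.2 and 36.5 FPKM in PGAM5 KD libraries. Every PGAM5 KD library was below every control library. The means were 44.7 ± 1.61 FPKM and 37.3 ± 1.63 FPKM (SD, n = 3 each), a log2 fold change of -0.25 ± 0.046 (SE), on 1935 to 2522 fragments. The ranks among protein-coding genes were 1080 to 1154 in control and 1321 to 1460 in PGAM5 KD libraries. Over the 19 alternatives tried its log2 fold change ran from -0.34 to -0.23.

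Mycl, the third MYC gene, was close to absent. Its libraries held 4, 1 and 17 fragments in control and 6, 0 and 5 fragments in PGAM5 KD, which is at most 0.216 FPKM. The library with 0 fragments allows a level of up to 0.0409 FPKM (3 fragments, counting error only). Most of the control fragments came from control replicate 3, and no difference was detectable at this depth.

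Together the 3 MYC genes summed to 267, 261 and 266 FPKM in control and to 280, 278 and 271 FPKM in PGAM5 KD libraries. The 2 groups did not overlap on this scale, and most of the sum was Mycn. After scaling to TPM the sum was 875, 857 and 873 in control and 880, 856 and 840 in PGAM5 KD libraries, and the groups overlapped. Mycn made up 83.0%, 82.4% and 83.8% of it in control and 87.0%, 85.9% and 86.5% in PGAM5 KD libraries. The ratio of Mycn to Myc, which multiplying a library by a constant leaves as it is, was 4.89, 4.68 and 5.18 in control and 6.71, 6.08 and 6.43 in PGAM5 KD. Its mean went from 4.92 ± 0.25 to 6.40 ± 0.32 (SD, n = 3 each), 1.30 times as high, with no overlap of the groups. As the members were chosen from this comparison, the ratio is a description too. The sum of the family was 1.04 times control on the FPKM scale and 0.989 times control on the TPM scale.

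**Figure D2:**
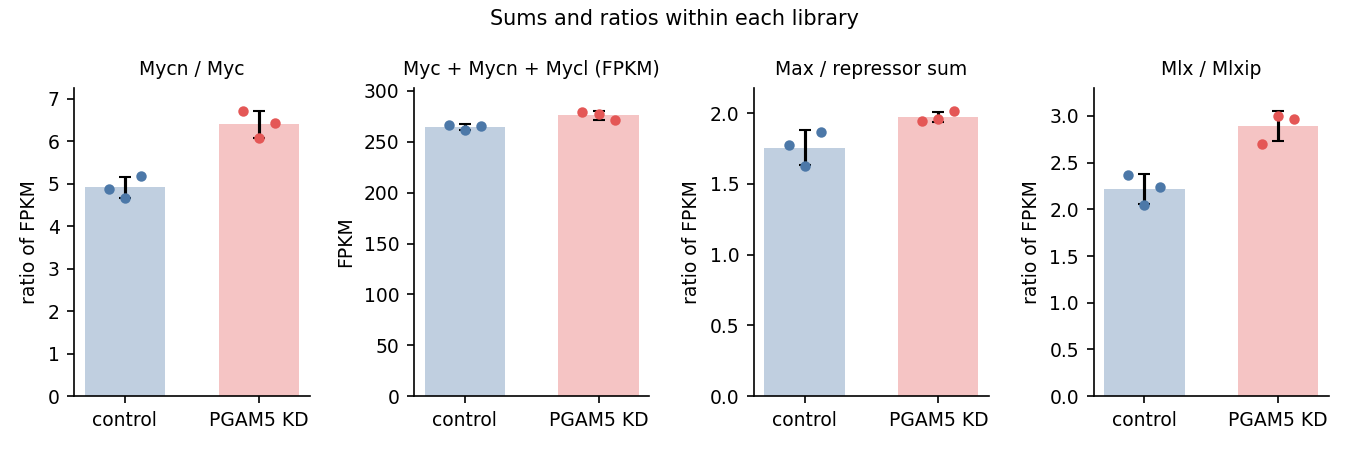
Sums and ratios formed within each library, control in blue and PGAM5 KD in red. Bars are means of 3 libraries, error bars the SD and points the libraries. From the left, the panels show Mycn over Myc, the sum of Myc, Mycn and Mycl in FPKM, Max over the summed repressors (Mxd1, Mxd3, Mxd4, Mxi1, Mnt and Mga), and Mlx over Mlxip. Groups do not overlap in any panel, but for the MYC sum they do once scaled to TPM. Neither the Max nor the Mlx panel takes account of exon length.

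Max, the obligate partner of the MYC proteins and a partner of the MXD proteins, stood at 44.7, 43.2 and 45.3 FPKM in control and at 46.6, 51.9 and 47.0 FPKM in PGAM5 KD libraries. PGAM5 KD replicate 2 was the highest, and the groups did not overlap on this scale. The means were 44.4 ± 1.05 and 48.5 ± 2.94 FPKM (SD, n = 3 each) and the log2 fold change 0.12 ± 0.049 (SE), or 0.076 without PGAM5 KD replicate 2 and 0.048 after scaling to TPM. In control libraries the 3 levels of Max lay within the range of those of Myc. In PGAM5 KD libraries, every value of Max was above every value of Myc. The RNA of the 3 MYC genes was 5.96 ± 0.088 times that of Max in control and 5.70 ± 0.33 times in PGAM5 KD (SD, n = 3 each), and here the groups overlapped.

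Of the repressors that compete for MAX, Mxi1 was the most abundant. It stood at 8.50, 9.18 and 9.49 FPKM in control and at 9.85, 10.6 and 9.43 FPKM in PGAM5 KD libraries. The groups overlapped, since PGAM5 KD replicate 3 lay within the range of the control libraries, and the log2 fold change was 0.12 ± 0.063 (SE), or 0.057 after scaling to TPM. Mnt, the broadly expressed member of the group, stood at 7.75, 8.48 and 6.56 FPKM in control and at 5.93, 7.15 and 6.23 FPKM in PGAM5 KD libraries. Those groups overlapped as well, and the log2 fold change was -0.21 ± 0.10 (SE). Mnt was the most variable of the 6 members between replicates.

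The MXD genes themselves, which are induced when many cell types differentiate, were low. Mxd1 stood at 0.848, 0.834 and 0.826 FPKM in control and at 0.753, 0.926 and 0.928 FPKM in PGAM5 KD libraries, on 109 to 160 fragments. The PGAM5 KD libraries lay on both sides of the control libraries. Mxd4 stood between 0.370 and 0.549 FPKM in control and between 0.401 and 0.461 FPKM in PGAM5 KD libraries, on 57 to 91 fragments, and all 3 PGAM5 KD libraries were within the range of control. Max was 1.76 ± 0.12 times the summed RNA of the 6 repressor genes (Mxd1, Mxd3, Mxd4, Mxi1, Mnt and Mga) in control and 1.97 ± 0.038 times in PGAM5 KD (SD, n = 3 each), without overlap. That ratio takes no account of exon length, and Mxi1 and Mga have longer exons than Max. With each library's trend on exon length removed, the log2 fold change was 0.082 for Max, 0.17 for Mxi1 and -0.21 for Mnt, against 0.12, 0.12 and -0.21 as deposited. The MYC genes summed to 10.5 ± 0.59 times the same repressors in control and 11.3 ± 0.68 times in PGAM5 KD, with overlap.

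Mlx, the partner of the second arm of the network, stood at 23.2, 20.6 and 22.6 FPKM in control and at 23.6, 23.8 and 23.5 FPKM in PGAM5 KD libraries. The groups did not overlap on this scale, but the gap between them was smaller than the range of the control libraries. The log2 fold change was 0.094 ± 0.051 (SE), or 0.019 after scaling to TPM, and it was -0.016 once each library's trend on exon length was removed and -0.021 with that on GC content removed as well, the 2 alternatives of 19 in which its sign changed. Psmc3ip, which shares the overlap named above, held 344 to 455 fragments in each library, against 830 to 1148 for Mlx.

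The levels of the members thus fell in the order Mycn, then Max and Myc, then Mlx, Mxi1, Mnt, Mxd1, Mxd4 and Mycl by the mean of the 6 libraries. Max and Myc did not differ beyond their spread in control, and Mxd1 and Mxd4 stood apart in every library. Mxi1 was above Mnt in all 6 libraries, by a wider margin in PGAM5 KD.

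**Figure D3:**
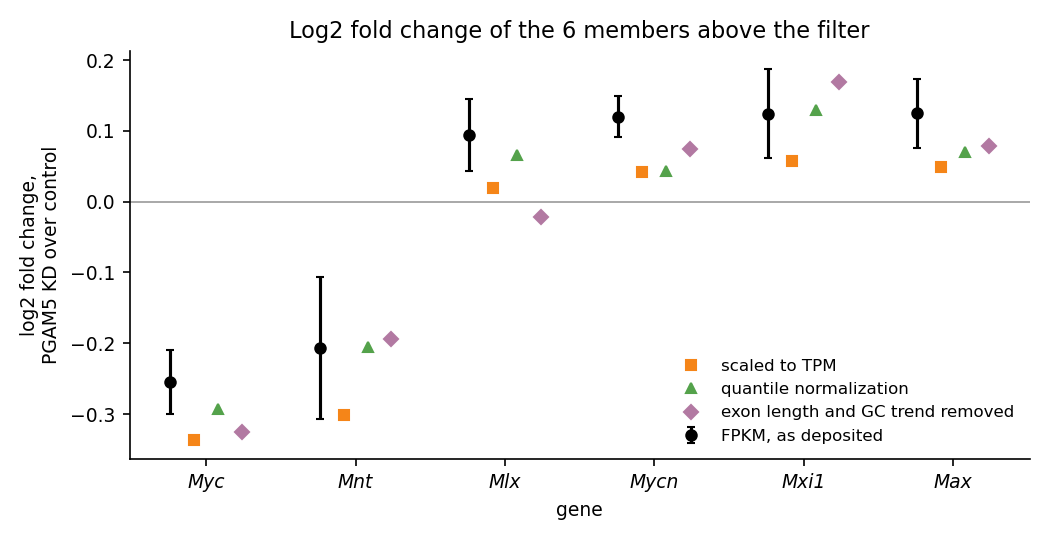
Log2 fold change of the 6 members above the filter, PGAM5 KD over control, on the log2(FPKM + 1) scale. Black circles with bars are the deposited FPKM with the SE, and the other symbols are the same difference under 3 other scalings, without error bars. Myc lies between -0.34 and -0.25 under all 4, and Mycn between 0.042 and 0.12.

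The rest of the network was taken from a list of 4 genes. Mlxip, which encodes MondoA, the main transcriptional partner of MLX in most cells, stood at 9.80, 10.0 and 10.1 FPKM in control and at 8.72, 7.94 and 7.93 FPKM in PGAM5 KD libraries. It was lower in all 3 PGAM5 KD libraries, with a log2 fold change of -0.26 ± 0.053 (SE, limma adjusted p = 0.01146). Mlx was 2.22 ± 0.16 times Mlxip in control and 2.89 ± 0.16 times in PGAM5 KD (SD, n = 3 each). On the log2 scale of the fit that difference in the ratio was 0.35, and 0.17 with the trend on exon length removed, Mlxip being the longer gene. Mlxipl, which encodes ChREBP, was listed at 0 in all 6 libraries. Mga, a MAX partner that is part of a polycomb-type repressor complex, had a log2 fold change of -0.14 ± 0.057 (limma adjusted p = 0.1036), and Mxd3 one of 0.13 ± 0.17 (limma adjusted p = 0.5903). Neither passed the test, though Mga was called after scaling to TPM (-0.23, limma adjusted p = 0.02972) and in a voom fit on recovered fragments (-0.18, limma adjusted p = 0.01754).

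At the Myc locus, Pvt1, the long noncoding RNA gene that neighbours Myc, stood at 1.10 FPKM in control and 1.08 FPKM in PGAM5 KD (log2 fold change -0.017 ± 0.12, limma adjusted p = 0.9292). The difference was smaller than its SE.

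Genes that MYC is known to raise were taken as a list of 58 growth targets, of ribosome production, nucleotide and polyamine synthesis, of which 56 were tested. In PGAM5 KD 8 were called higher and 5 lower, 23.2% in all, beside 31.7% of all genes. Their median log2 fold change was 0.0063, against 0.013 over all genes tested. After scaling to TPM it was -0.072, where the median of all genes was -0.060, and after quantile normalization -0.058, where that of all genes was -0.0027. It was -0.0016 without control replicate 1 and -0.0086 once the trends on exon length and GC content were removed. With TPM 2 of them were called higher and 11 lower, beside 1088 and 2282 of all 10540 genes. With quantile normalization 2 were called higher and 12 lower, beside 1436 and 1721 of all genes.

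Odc1, which encodes the rate-limiting enzyme of polyamine synthesis and is a classic MYC target, stood apart from the rest of the list. It stood at 424, 437 and 446 FPKM in control and at 709, 722 and 711 FPKM in PGAM5 KD libraries. The log2 fold change was 0.71 ± 0.028 (SE, limma adjusted p = 1.822e-05), or 0.66 after the trends on exon length and GC content were removed. Of the other genes called higher, Phb, which encodes prohibitin of the inner mitochondrial membrane, had a log2 fold change of 0.20 ± 0.030, Paics of purine synthesis 0.17 ± 0.030, Mrto4 of ribosome assembly 0.16 ± 0.047 and Impdh2 of guanine nucleotide synthesis 0.15 ± 0.036 (SE, limma adjusted p between 0.003168 and 0.04246). Mrto4 was not called in 4, and Impdh2 in 3, of 6 fits with 1 library left out, with limma adjusted p up to 0.1231 and 0.05967. After scaling to TPM Paics (0.08023), Mrto4 (0.2649) and Impdh2 (0.1273) were not called either, by limma's adjusted p.

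Among the growth targets called lower were Utp20, of the processing of ribosomal RNA, at 32.8 ± 1.44 FPKM in control and 24.2 ± 0.379 FPKM in PGAM5 KD (SD, n = 3 each), a log2 fold change of -0.42 ± 0.043 (SE, limma adjusted p = 0.0005806), and Polr1b, a subunit of RNA polymerase I, at -0.29 ± 0.054 (limma adjusted p = 0.007188). Rrs1 had a log2 fold change of -0.17 ± 0.043, Cad of pyrimidine synthesis -0.15 ± 0.034 and the nucleolar GTPase gene Gnl3 -0.15 ± 0.035 (SE, limma adjusted p between 0.01458 and 0.02334). In all of these no PGAM5 KD library fell within the range of control. Rrs1 and Gnl3 were not called in 5 and 4 of 6 fits with 1 library left out (limma adjusted p up to 0.07582 and 0.06452). Of the growth targets, 51 were matched to a promoter, and 17 of these (33.33%) held the E-box letters printed above.

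Genes that MYC represses together with MIZ1 were few in these cells. Of 6 listed, 3 were tested, and 2 were called higher, beside 16.8% of all genes called higher, with a median log2 fold change of 0.39, against 0.013 over all genes. Cdkn1a, which encodes the cell cycle inhibitor p21, stood at 33.9, 32.8 and 34.6 FPKM in control and at 71.4, 71.8 and 71.7 FPKM in PGAM5 KD libraries. It was 2.12 times as high, with a log2 fold change of 1.06 ± 0.033 (SE, limma adjusted p = 7.422e-06). Ndrg1, a stress-induced gene, rose from 4.60 ± 0.156 to 6.36 ± 0.276 FPKM (SD, n = 3 each), a log2 fold change of 0.39 ± 0.059 (limma adjusted p = 0.003056). Cdkn1b was not called (log2 fold change 0.069 ± 0.11, limma adjusted p = 0.657), and Cdkn1c and Cdkn2b were listed at 0 in all libraries. Gadd45a, below the filter, stood at 0.437, 0.590 and 0.261 FPKM in control and at 1.11, 1.69 and 1.28 FPKM in PGAM5 KD libraries, without overlap.

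Of the genes known to be driven by MLX and its partners, 3 of 4 were tested. Txnip, the thioredoxin-interacting inhibitor of glucose uptake, stood at 47.4, 49.4 and 51.4 FPKM in control and at 55.4, 57.1 and 59.1 FPKM in PGAM5 KD libraries. It was higher in all 3 PGAM5 KD libraries, at a log2 fold change of 0.21 ± 0.043 (SE, limma adjusted p = 0.01122), but it was not called after scaling to TPM (0.13, limma adjusted p = 0.05229). Arrdc4 and Klf10 were not called (log2 fold changes 0.064 ± 0.10 and 0.076 ± 0.072, limma adjusted p = 0.658 and 0.4594), and Pklr was listed at 0.

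The SIN3 and NCOR co-repressors through which MXD and MNT act were all 11 tested, and 4 were called higher and 2 lower, 54.5% beside 31.7% of all genes, with a median log2 fold change of 0.035, against 0.013 over all genes. Sap30, a SIN3 subunit, rose from 89.7 ± 3.99 to 124.0 ± 4.32 FPKM (SD, n = 3 each), a log2 fold change of 0.46 ± 0.043 (SE, limma adjusted p = 0.0004037). Hdac1, which encodes a histone deacetylase of the complex, rose by 0.30 ± 0.051 on the log2 scale (limma adjusted p = 0.005581), while Hdac2, which encodes another, was not called (0.018 ± 0.032, limma adjusted p = 0.7005). Sap18 and Rbbp4 were called higher at 0.21 ± 0.052 and 0.13 ± 0.036 (limma adjusted p = 0.0233 and 0.02853). Sin3a, the scaffold itself, was lower at -0.15 ± 0.045 (limma adjusted p = 0.03784) and Ncor1 at -0.21 ± 0.041 (limma adjusted p = 0.009077). Sap18, Rbbp4 and Sin3a were not called in 4, 4 and 5 of 6 fits with 1 library left out (limma adjusted p up to 0.07425, 0.08658 and 0.1109). With the trend on exon length removed, Sap30, Hdac1, Sap18 and Rbbp4 were called higher and neither Sin3a nor Ncor1 was called. After scaling to TPM the median of the list was -0.041 and that of all genes -0.060, and Sap18 (limma adjusted p = 0.09213) and Rbbp4 (0.2863) were not called.

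**Figure D4:**
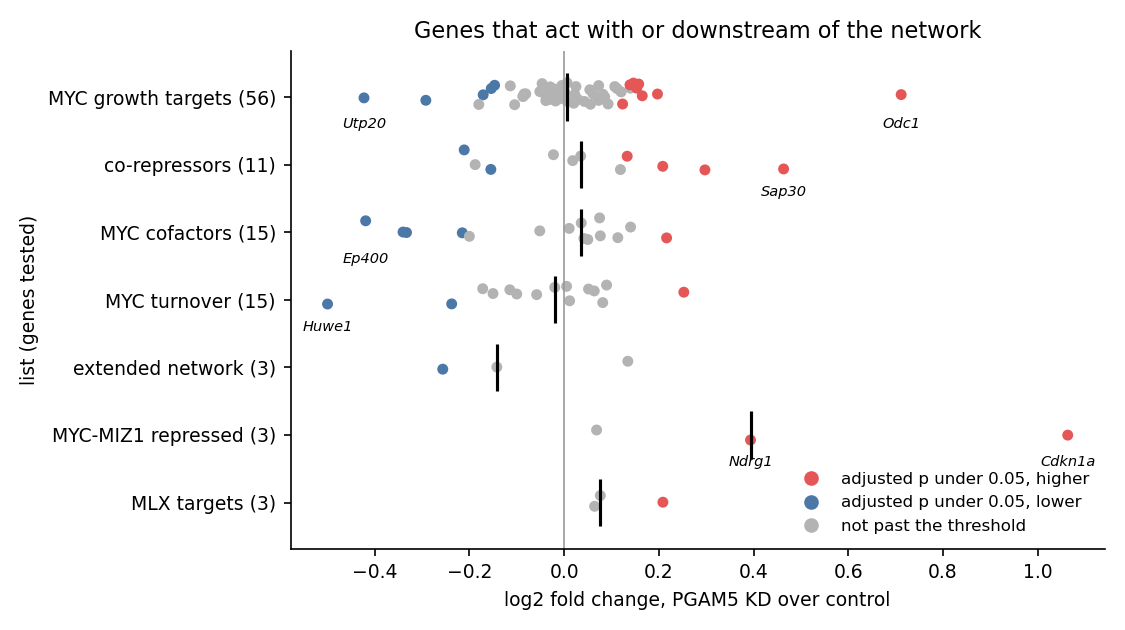
Log2 fold change of each tested gene, PGAM5 KD over control, in 7 lists of genes that act with or downstream of the network. Red and blue mark genes with an adjusted p under 0.05, grey the others, and the black bar the median of the list. Odc1 and Cdkn1a lie farthest to the right and Huwe1 farthest to the left.

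The cofactors that MYC uses at its targets were tested for 15 of 15 genes, of which 1 was called higher and 4 lower, 33.3% beside 31.7% of all genes. Their median log2 fold change was 0.036, or -0.0081 without control replicate 2, and after scaling to TPM it was -0.038 where that of all genes was -0.060. Ruvbl2, an ATPase of the TIP60 and INO80 complexes, was called higher (0.22 ± 0.038, limma adjusted p = 0.0062). Ep400 (-0.42 ± 0.044, limma adjusted p = 0.0006841) and Trrap (-0.34 ± 0.051, limma adjusted p = 0.003001), large subunits of the TIP60 complex, were called lower, but Trrap not with the trend on exon length removed (-0.15, limma adjusted p = 0.07973). So was Hcfc1 (-0.33 ± 0.032, limma adjusted p = 0.0004384), whose product binds MYC.

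The genes that set the stability of MYC proteins were tested for 15 of 16, of which 1 was called higher and 2 lower, beside 31.7% of all genes called, with a median log2 fold change of -0.020. After scaling to TPM 5 were called lower, beside 2282 of all 10540 genes, whose median was then -0.060. With voom on recovered fragments 4 were called lower, beside 1957 of all 10535 genes in that fit. Huwe1, a ubiquitin ligase that acts on MYC and MYCN, fell from 26.7 ± 0.932 to 18.6 ± 0.723 FPKM (SD, n = 3 each), a log2 fold change of -0.50 ± 0.046 (SE, limma adjusted p = 0.0003789). The deubiquitinase gene Usp36 was lower (-0.24 ± 0.047, limma adjusted p = 0.009633). MYC protein itself was not measured.

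Differences in these libraries went with the length of the genes. Over the 2634 tested genes with the shortest summed exons (up to 2322 bases) the median log2 fold change was 0.12, and over the 2632 with the longest (6458 bases or more) it was -0.079. Genes called lower made up 6.34% of the shortest and 26.7% of the longest. The list genes called higher had a median exon length of 3139 bases (17 genes) and those called lower one of 8343 bases (14 genes), and Huwe1, Trrap and Ep400 are the longest of them. Alternatives chosen after seeing the data removed each library's trend on exon length alone, on GC content alone, or on both. With the length trend alone removed, Huwe1, Ep400, Hcfc1 and Utp20 were still called lower, at -0.29, -0.28, -0.26 and -0.33, and Odc1, Cdkn1a and Sap30 still called higher, at 0.66, 1.02 and 0.33. In that fit Trrap went from -0.34 to -0.15 (limma adjusted p = 0.07973), Ncor1 from -0.21 to -0.085 (0.1568), Cad from -0.15 to -0.085 (0.1168), Mrto4 from 0.16 to 0.082 (0.2476) and Impdh2 from 0.15 to 0.094 (0.08506), and none of these was called. Sin3a kept most of its difference, -0.13 after -0.15, and narrowly missed the threshold (limma adjusted p = 0.06097), as did Gnl3 at -0.11 (0.05034). With the GC trend alone removed, 1 of these 7 genes was not called, Mrto4 at 0.13 (limma adjusted p = 0.08006). Myc, with 2717 exon bases, was at -0.33 with the length trend removed and -0.28 with the GC trend removed, and Mycn (3295 bases) at 0.068 and 0.096.

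**Figure D5:**
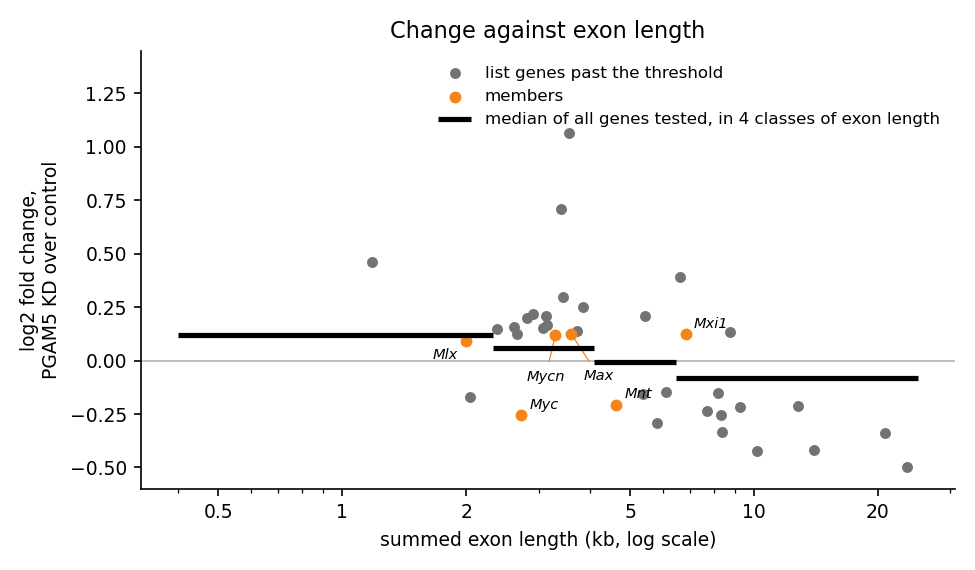
Log2 fold change, PGAM5 KD over control, against summed exon length in kb on a log scale, for the list genes with an adjusted p under 0.05 (grey) and the 6 tested members (orange). Black bars are the medians of all tested genes in 4 equal classes of exon length, drawn from 0.4 to 25 kb. The bars step down from 0.12 to -0.079, and of the 6 members Myc and Mnt lie farthest below the bar at their own length.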

How the data were processed

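RNA-seq of 6 libraries was analysed, 3 control and 3 PGAM5 KD, grouped by the shRNA in their labels. The deposited values are FPKM per Ensembl gene, 1 table a library. The submitters' processing notes name HISAT2 2.0.5, featureCounts 1.5.0-p3 and mm10. The annotation was not given in the sources used here, and GENCODE M21 held 54495 of the 54532 identifiers. Multiplied by exon length, 96.8% to 97.1% of values were whole fragments within 0.01, which gave each library's depth. The library protocol names both a stranded and an unstranded option.

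The 10540 genes whose mean reached 1 FPKM were fitted on the log2(FPKM + 1) scale with limma 3.58.1 in R 4.3.3 (eBayes with trend, two-sided, Benjamini-Hochberg adjustment over all genes), checked on simulated data. Transcripts were compared with blastn 2.17.0. Intervals and floors cover counting error only. Members and lists were chosen with earlier results of these data known. Named genes were the members, Pgam5, the rest of the network, the loci, up to 5 called genes in each direction of every other list, and the 3 genes most like Myc and Mycn. Gadd45a, Hdac2 and the genes listed at 0 were named after their values were seen. Alternatives were 13 other settings, 4 of them chosen after seeing the data, and 6 fits leaving out a library. A voom fit on recovered fragments was 1 of the settings. A few named genes and 1 sequence are not reported here.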

Additional observations from a re-analysis of the deposited data

How the results depend on the processing

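Under every alternative the log2 fold change was negative for Myc and positive for Mycn, which was called in 11 of 19. The alternatives refit the same libraries the members were chosen from, so a constant sign adds no support. The log2 fold change of Myc was -0.34 after scaling to TPM, -0.33 with the trend on exon length removed and -0.32 with those on length and GC content removed (below, both trends). That of Mycn was 0.042 with TPM, 0.043 with quantile normalization, 0.068 with the length trend and 0.074 with both trends removed. With TPM 1088 of all genes were called higher and 2282 lower, and with quantile normalization 1436 and 1721. Of all genes, 1323 were called higher with no filter, 1550 with no mean-variance trend, 1424 with the length trend and 1421 with both trends removed. Both thresholds were passed by 233 genes with TPM, 261 at a pseudocount of 0.1, 76 at a mean FPKM of at least 5 and 277 with voom on recovered fragments. MYC growth targets called higher numbered 2 with TPM or quantile normalization, 5 with no filter or no mean-variance trend, 3 with the length trend and 4 with both trends removed, and those called lower 11 with TPM and 12 with quantile normalization. Their median was -0.072 with TPM, -0.058 with quantile normalization, -0.0075 with the length trend, 0.00094 with the GC trend and -0.0086 with both trends removed, 0.014 centred on library medians and 0.00076 with voom.

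Medians of the other lists moved as well. With TPM they were -0.23 (extended network), -0.041 (co-repressors), -0.038 (MYC cofactors) and -0.098 (MYC turnover). With quantile normalization they were 0.015 (co-repressors) and -0.055 (MYC turnover), and with both trends removed -0.0032 (extended network), 0.0078 (co-repressors) and -0.059 (MYC turnover). With the length trend alone removed they were 0.0088 (extended network), 0.0094 (co-repressors) and -0.050 (MYC turnover), and MYC turnover was -0.055 with the GC trend removed. The median of all genes was 0.013 as deposited, -0.060 with TPM and -0.0027 with quantile normalization. At a mean FPKM of at least 5 MYC turnover stood at -0.058. The MYC-MIZ1 repressed genes stood at 0.46 with a pseudocount of 0.1, 0.56 with no filter and 0.46 with voom. The causes of these shifts were not tested. Leaving out a library gave 5 to 7 growth targets called higher and 3 to 5 called lower, beside 1211 to 1497 and 1129 to 1361 of all genes. Medians then ran from -0.0016 to 0.014 (growth targets), 0.020 to 0.059 (co-repressors), -0.0081 to 0.057 (MYC cofactors) and -0.036 to -0.0012 (MYC turnover).

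Same-numbered control and PGAM5 KD libraries did not deviate together (correlations of -0.02, 0.016 and -0.052). With groups of 3 this cannot show whether they share a batch, and the labels do not say what a number stands for. With the replicate block, 1440 genes were called higher and 1212 lower, 3 growth targets were called lower, and Mycn was not called. For single named genes, 621 values kept direction and call, 73 lost the call, 2 gained it and 4 without a call moved by more than the spread between libraries. Depth limits Mycl, Mxd1 and Mxd4, with at most 160 fragments a library. No result met the rules for a closer look, which do not test groups of 3.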

Other observations

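By Pearson's r of log2(FPKM + 1) over the 6 libraries, the 3 genes whose pattern was most like that of Myc were Apbb2 (r = 0.9964), Wdr26 (r = 0.994) and Cdip1 (r = 0.9937). Wdr26, a subunit of the CTLH ubiquitin ligase, stood at 61.7, 62.4 and 60.1 FPKM in control and at 53.0, 55.1 and 53.4 FPKM in PGAM5 KD libraries, so it was lower in all 3. Apbb2 and Cdip1 were low, at 2.27 to 3.88 FPKM and 2.29 to 3.40 FPKM. The genes most like Mycn were Cp (r = 0.9977), Prrc1 (r = 0.995) and Arfip2 (r = 0.9946). Cp, which encodes the ferroxidase ceruloplasmin, stood at 5.80, 5.21 and 5.78 FPKM in control and at 8.69, 8.02 and 7.44 FPKM in PGAM5 KD libraries. These are the highest r of 9338 protein-coding genes over 6 libraries that also share their groups, and they are given as a description.

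The surroundings of both genes were looked at after their values had been seen. Within 1 Mb of Mycn, 34 genes are annotated, and 7 of them reached a mean of 1 FPKM. The highest was Ddx1, an RNA helicase gene often co-amplified with MYCN in tumours, at 59.3 FPKM, and the level of Mycn itself was 229 FPKM. Within 1 Mb of Myc, 18 genes are annotated and 1 reached that level, Pvt1 at 1.09 FPKM.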
